A study of Homo sapiens with 12 samples.

Results

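The urokinase system genes PLAU, PLAT, PLAUR, SERPINE2 and SERPINB2 were followed together with the transglutaminase gene TGM2 in 2 EGFR-mutant lung cancer cell lines exposed to EGFR inhibitors. These 6 genes were matched by symbol among 60591 genes of the count table, and all 6 were among the 19108 genes that passed the filter on low counts. TGM2 was chosen by its log2 fold changes against untreated cells, which had opposite signs in the lines. Its changes against untreated cells, its differences between lines and its differences between drugs are therefore described without a test. The other 5 genes were chosen as parts of the plasminogen activation system.

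Urokinase (PLAU) is a secreted serine protease that cleaves plasminogen to plasmin, a protease that degrades fibrin and extracellular matrix, and PLAUR is the cell surface receptor that holds urokinase at the membrane. PLAT encodes tissue plasminogen activator, whereas SERPINE2 (protease nexin-1) and SERPINB2 (PAI-2) encode serpins that inhibit these proteases. TGM2 is a calcium-dependent enzyme that crosslinks proteins and also binds fibronectin and integrins at the cell surface.

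The data were read counts per gene from polyA RNA of PC9 and H1650 cells, established non-small cell lung cancer lines that both carry an activating EGFR deletion and whose genotype is otherwise labelled wild-type. T0 cells had received the DMSO vehicle and were taken at 0 h, and the other cells were exposed for 36 h to 10 µM erlotinib, a reversible EGFR inhibitor, or 0.1 µM osimertinib, a covalent inhibitor. Each of the 6 groups had 2 libraries, with total counts from 17961765 to 26346187. No vehicle library at 36 h was analysed here, so a change against T0 cannot be told apart from a change with time in culture, and each line stands for a single cell population. The study describes its RNA-seq replicates as biological, and the labels do not say whether they came from separate cultures, so p-values measure the spread between these libraries.

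Library composition was checked against marker genes. Of 9 epithelial markers, 7 to 8 were above 3 reads in each group and their summed level ranged from 6162 to 13299 normalized CPM (the reads of a gene scaled to a common library size, with TMM factors). NKX2-1 and SFTPB, lung lineage markers, did not exceed 0.0933 and 0.154 CPM in any library. The summed levels of the 5 fibroblast markers were 10.1 to 45.9 CPM, almost entirely COL1A1 (9.96 to 44.8 CPM), while 3 endothelial and 4 leukocyte markers reached at most 5.55 and 0.839 CPM. In bulk RNA of this kind, fewer cells of a type and less RNA per cell cannot be told apart.

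Promoter sequences of 3 of the genes are shown because they differ in a motif of AP-1, the FOS-JUN transcription factor family whose members are described with the other gene groups. Each runs 5′ to 3′ on the strand of the gene in RefSeq GRCh38.p14, from 250 bases before to 50 bases after an annotated start, and capitals mark a match to TGANTCA, a relaxed form of the AP-1 motif that reads as TGANTCA on the other strand too. PLAUR lies at chr19:43670120-43670419 on the minus strand, SERPINB2 at chr18:63887455-63887754 on the plus strand, and the second of the PLAU windows at chr10:73910882-73911181 on the plus strand.
PLAUR: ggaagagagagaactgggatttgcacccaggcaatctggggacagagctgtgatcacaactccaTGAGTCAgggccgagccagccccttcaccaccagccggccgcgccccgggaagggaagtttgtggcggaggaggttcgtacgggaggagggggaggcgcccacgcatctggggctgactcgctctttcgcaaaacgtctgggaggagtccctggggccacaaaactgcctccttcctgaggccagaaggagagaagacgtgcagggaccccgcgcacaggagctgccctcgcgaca
SERPINB2: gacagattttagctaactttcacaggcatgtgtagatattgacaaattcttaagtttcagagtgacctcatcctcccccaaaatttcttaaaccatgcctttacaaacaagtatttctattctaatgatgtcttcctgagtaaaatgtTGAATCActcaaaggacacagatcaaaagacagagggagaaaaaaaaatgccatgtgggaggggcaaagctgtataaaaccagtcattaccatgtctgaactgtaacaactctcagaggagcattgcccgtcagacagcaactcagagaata
PLAU: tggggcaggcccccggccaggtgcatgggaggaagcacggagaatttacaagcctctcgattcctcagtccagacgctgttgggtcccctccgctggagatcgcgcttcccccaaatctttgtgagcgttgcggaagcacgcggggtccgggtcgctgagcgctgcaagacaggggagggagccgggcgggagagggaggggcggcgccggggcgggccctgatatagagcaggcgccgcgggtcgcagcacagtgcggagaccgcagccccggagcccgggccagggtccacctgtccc
The PLAUR window held TGAGTCA, with its first base 186 bases before the start. The SERPINB2 window held TGAATCA 102 bases before the start and a TATAAA, searched on the strand of the gene only, 30 bases before it. No match was present in either of 2 PLAU windows or 2 SERPINE2 windows, which says only that these letters are not in those windows. Among 35116 promoter windows of this length, 7.71% held TGANTCA and 7.33% held TATAAA. The stricter TGACTCA, searched on both strands, was in 4.95% of windows, and of the member windows only that of PLAUR kept a match. No promoter window was used for PLAT or TGM2.

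All 5 urokinase system genes were lower in PC9 after erlotinib than at T0, against 29.1% of all tested genes that were lower and 32.7% that were higher. The sparse SERPINB2 is among these 5, and DESeq2 did not call it (adjusted p = 0.0935 in DESeq2). In PC9 exposed to osimertinib, 3 of the 5 were lower (PLAU, PLAUR and SERPINE2) and PLAT was higher, with 28.7% of all genes lower and 32.7% higher. In H1650 only PLAU, PLAUR and SERPINE2 exceeded 3 reads in a library. All 3 were lower after erlotinib, where 18.5% of all genes were lower and 18.0% higher. After osimertinib PLAUR and SERPINE2 were lower and PLAU was higher, where 17.9% of all genes were lower and 17.8% higher. Without H1650 T0 replicate 1 the last count fell from 3 to 1 of 3 genes, SERPINE2. A gene is called changed here when its Benjamini-Hochberg adjusted p in edgeR's quasi-likelihood test, over all tested genes, is under 0.05, and every adjusted p given for the members comes from that test.

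**Figure D1:**
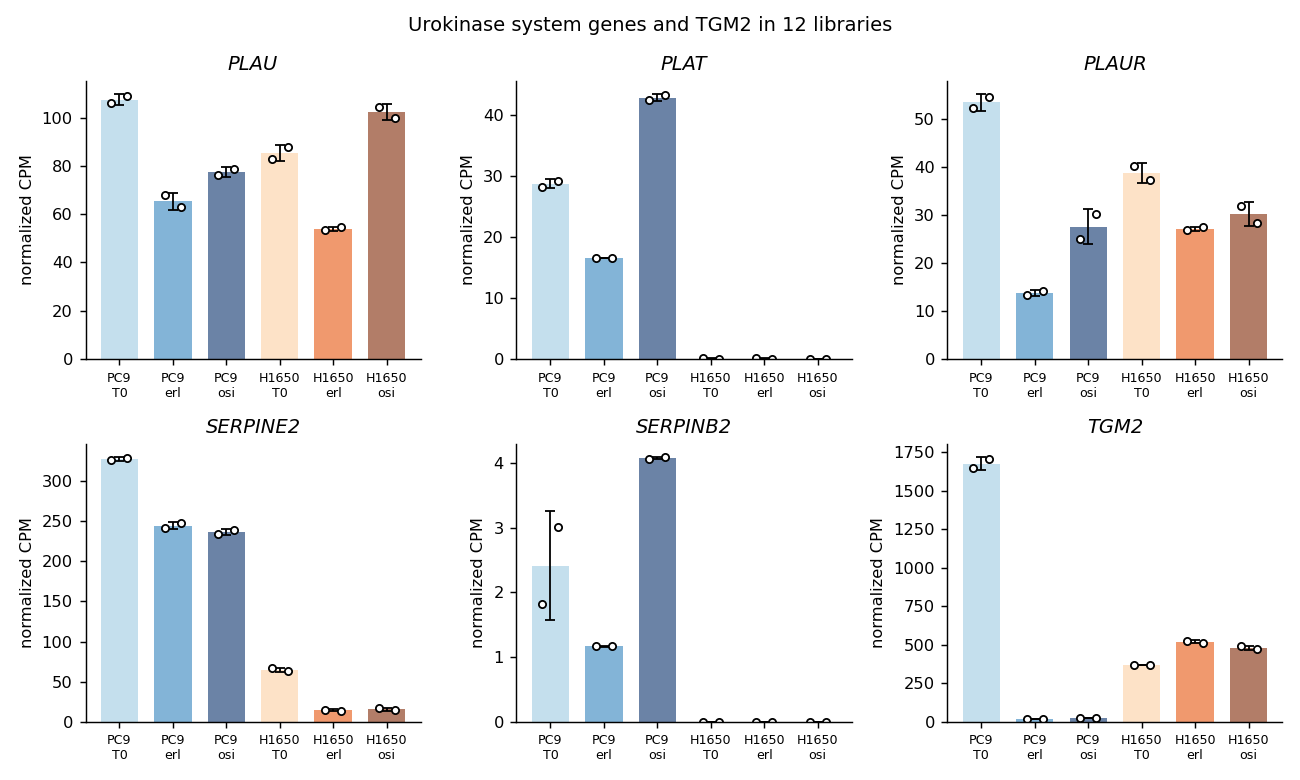
Normalized CPM (y axis, linear from 0, with its own scale in each panel) of the 6 genes in each group of PC9 and H1650 cells (x axis; erl, erlotinib; osi, osimertinib). Bars are group means, error bars S.D. and circles the 2 libraries; TGM2 falls from 1678 to 16.9 CPM in PC9 with erlotinib and rises from 367 to 520 CPM in H1650, and PLAT and SERPINB2 are near 0 in H1650.

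The secreted activator PLAU (ENSG00000122861, chr10:73909177-73917497, plus strand, GRCh38) was at 106 and 109 CPM in the PC9 T0 libraries, 67.8 and 62.8 CPM after erlotinib, and 76.1 and 78.9 CPM after osimertinib. In H1650 it was at 83.0 and 87.7 CPM at T0, 53.4 and 54.6 CPM after erlotinib, and 104.6 and 99.9 CPM after osimertinib. PLAU was thus lowest with erlotinib in both lines, no 2 groups of a line overlapped, and osimertinib left it below T0 in PC9 and above T0 in H1650. In PC9 the log2 fold change was -0.72 ± 0.0757 (SE, n = 2 per group) with erlotinib (adjusted p = 2.78e-09 in edgeR) and -0.47 with osimertinib (adjusted p = 3.98e-06 in edgeR). In H1650 it was -0.66 with erlotinib (adjusted p = 9.17e-08) and 0.26 with osimertinib (adjusted p = 0.00714). The rise with osimertinib lost its call without H1650 T0 replicate 1 (adjusted p = 0.0935) or H1650 osimertinib replicate 1 (adjusted p = 0.0836). An exon of PLAU overlaps C10orf55 on the opposite strand, which had 7 to 32 reads per library, and whether counting used strand is not given in the sources used here.

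The response of PLAU to osimertinib differed between the lines by 0.73 on the log2 scale (H1650 minus PC9, adjusted p = 1.88e-06), whereas the erlotinib responses differed by 0.06 (95% interval -0.16 to 0.28, adjusted p = 0.722). PLAU was the only urokinase system gene whose drug difference passed the threshold in H1650, with osimertinib 1.89-fold above erlotinib (log2 difference 0.92, adjusted p = 1.50e-09). In PC9 the same difference was 0.25 (adjusted p = 0.0244). That PC9 call was lost when PC9 erlotinib replicate 2 (adjusted p = 0.215), PC9 osimertinib replicate 1 (adjusted p = 0.0633) or PC9 osimertinib replicate 2 (adjusted p = 0.154) was left out, with no filter on low counts (adjusted p = 0.0905) and with a fit per line (adjusted p = 0.0504).

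PLAT (ENSG00000104368, chr8:42175233-42207724, minus strand), the activator that acts mainly on fibrin-bound plasminogen, exceeded 3 reads per library in PC9 alone. Its levels were 28.1 and 29.2 CPM at T0, 16.6 and 16.5 CPM after erlotinib, and 42.4 and 43.2 CPM after osimertinib, with no overlap between groups. PLAT therefore fell with erlotinib (log2 fold change -0.79, adjusted p = 1.04e-05) and rose with osimertinib (0.58, adjusted p = 0.000318). The drugs differed by 1.37 on the log2 scale (2.58-fold, adjusted p = 1.49e-08). The 6 H1650 libraries held 0 to 3 reads of PLAT, at or under the floor of 3 reads per library, so no fold between H1650 groups is given. At T0 the PC9 libraries held 1149 reads of PLAT together and the H1650 libraries 2, a normalized ratio of 679 with an exact 95% counting interval of 187 to 5610. That ratio rests on 2 reads of 1 H1650 library, with 0 in the other, and its interval covers counting error only, which the replicates exceeded.

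The receptor gene PLAUR (ENSG00000011422, chr19:43646095-43670547, minus strand) fell in all 4 drug exposures and fell most in PC9 with erlotinib. PC9 libraries held 52.3 and 54.7 CPM at T0, 13.3 and 14.3 CPM after erlotinib, and 25.1 and 30.2 CPM after osimertinib. H1650 libraries held 40.2 and 37.3 CPM at T0, 26.8 and 27.5 CPM after erlotinib, and 31.9 and 28.4 CPM after osimertinib. Within each line every treated library was below both T0 libraries. In PC9 the fall was 3.87-fold with erlotinib (log2 fold change -1.95 ± 0.106, SE, n = 2 per group, adjusted p = 2.54e-15 in edgeR) and 1.94-fold with osimertinib (-0.96, adjusted p = 2.62e-09 in edgeR).

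In H1650 PLAUR fell by 0.51 on the log2 scale with erlotinib (adjusted p = 0.00018) and by 0.36 with osimertinib (adjusted p = 0.00511). The osimertinib call was lost without H1650 T0 replicate 1 (adjusted p = 0.0626) or H1650 osimertinib replicate 2 (adjusted p = 0.103). The difference between the responses (H1650 minus PC9) was 1.44 with erlotinib (adjusted p = 4.05e-09) and 0.60 with osimertinib (adjusted p = 0.00107). Osimertinib left PLAUR 1.99-fold above erlotinib in PC9 (adjusted p = 1.19e-07). In H1650 the drug difference was 0.15 (95% interval -0.06 to 0.36, adjusted p = 0.440). By level, the PC9 osimertinib group overlapped both the H1650 osimertinib and the H1650 erlotinib group, which did not overlap each other, and the other neighbours in the order did not overlap.

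**Figure D2:**
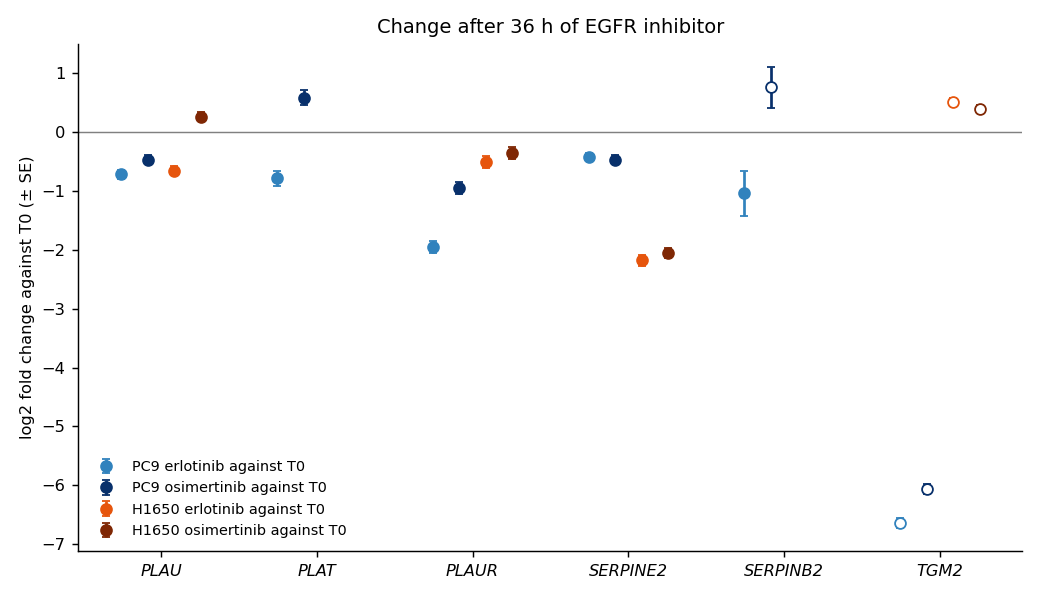
Log2 fold change against T0 of the same line (y axis) for 5 urokinase system genes and TGM2 (x axis), by line and drug, with error bars of 1 SE from the edgeR fit. Filled circles were called at an adjusted p under 0.05, open circles were not called (SERPINB2) or not tested (TGM2), and H1650 points are missing for PLAT and SERPINB2, whose reads were at or under the floor; PLAUR falls most in PC9 with erlotinib (-1.95) and SERPINE2 in H1650 with erlotinib (-2.18).

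SERPINE2 (ENSG00000135919, chr2:223975112-224039319, minus strand) encodes a secreted inhibitor of thrombin, urokinase and plasmin. Its PC9 levels were 326 and 330 CPM at T0, 241 and 247 CPM after erlotinib, and 234 and 239 CPM after osimertinib. Its H1650 levels were 66.7 and 63.0 CPM at T0, 15.02 and 13.6 CPM after erlotinib, and 16.8 and 14.4 CPM after osimertinib. The treated libraries lay below T0 in both lines, and the drug groups overlapped in H1650. The fall was 4.54-fold with erlotinib (adjusted p = 9.79e-17) and 4.16-fold with osimertinib (adjusted p = 3.08e-16) in H1650, and 1.34-fold (adjusted p = 9.44e-06) and 1.39-fold (adjusted p = 2.09e-06) in PC9.

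The falls in SERPINE2 were larger in H1650 than in PC9 by -1.76 on the log2 scale with erlotinib (adjusted p = 5.56e-13) and -1.59 with osimertinib (adjusted p = 3.35e-12), and all 12 leave-one-out fits kept both calls. Osimertinib against erlotinib gave -0.05 in PC9 (95% interval -0.19 to 0.10, adjusted p = 0.757) and 0.12 in H1650 (95% interval -0.08 to 0.33, adjusted p = 0.540). For SERPINE2, then, neither line showed a difference between the drugs past the threshold, at doses that were not matched.

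SERPINB2 (ENSG00000197632, chr18:63871692-63903890, plus strand), an inhibitor of urokinase found largely inside cells, was sparse. PC9 libraries held 36 and 61 reads at T0 (1.81 and 3.01 CPM), 26 and 30 reads after erlotinib (1.16 and 1.17 CPM), and 88 and 73 reads after osimertinib (4.07 and 4.09 CPM). Each of the 6 H1650 libraries held 0 reads. Against the floor of 3 reads per library, SERPINB2 was at least 18.9-fold higher in PC9 than in H1650 at T0. The drugs differed by 1.80 on the log2 scale in PC9 (3.48-fold, adjusted p = 0.00093), the direction also seen for PLAT.

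Against T0 the SERPINB2 changes in PC9 depended on the fit, and the T0 libraries lay farther apart than those of either drug. With erlotinib the log2 fold change was -1.04 ± 0.379 (SE, n = 2 per group, adjusted p = 0.0198 in edgeR). DESeq2 did not call it (adjusted p = 0.0935), and neither did the fits without PC9 T0 replicate 2 (-0.64, adjusted p = 0.284), PC9 erlotinib replicate 1 (adjusted p = 0.0710) or PC9 erlotinib replicate 2 (adjusted p = 0.0751). With osimertinib it was 0.76 (adjusted p = 0.0611), which became 1.16 (adjusted p = 0.0374) without PC9 T0 replicate 2 and 0.43 (adjusted p = 0.416) without PC9 T0 replicate 1. It was called with upper quartile scaling (0.83, adjusted p = 0.0421) and with a fit per line (0.69, adjusted p = 0.0341), and not with DESeq2 (0.74, adjusted p = 0.251). An exon of SERPINB2 overlaps SERPINB10 on the same strand, which had 0 reads in all 12 libraries.

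TGM2 (ENSG00000198959, chr20:38127387-38166578, minus strand) had 1647 and 1708 CPM in the PC9 T0 libraries. It had 17.2 and 16.6 CPM in PC9 after erlotinib and 24.3 and 26.1 CPM after osimertinib. In H1650 it had 367 CPM in both T0 libraries, 527 and 514 CPM after erlotinib, and 489 and 469 CPM after osimertinib. As chosen, TGM2 was far lower in every treated PC9 library and higher in every treated H1650 library than at T0, and no groups overlapped. The fitted level was 99.3-fold lower with erlotinib and 66.7-fold lower with osimertinib in PC9, and 1.42-fold and 1.31-fold higher in H1650. Per kilobase of the gene length in the table, TGM2 stood at the 99.2 percentile of tested genes in PC9 T0 and at the 47.2 percentile after erlotinib.

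The rule did not name the comparison between the drugs, but that comparison rests on the same treated libraries as the changes by which TGM2 was chosen. It is therefore described without a test. In PC9, TGM2 was 1.49-fold higher with osimertinib than with erlotinib (log2 difference 0.58), a small difference beside the distance of both from T0. In H1650 the log2 difference was -0.12. The osimertinib groups overlapped no other group in either line. An exon of TGM2 overlaps RPRD1B on the opposite strand, which ranged from 46.9 to 156 CPM.

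Comparison of osimertinib with erlotinib addressed whether the inhibitors acted on these genes to the same extent at the doses used, which were 0.1 µM and 10 µM and so were not matched. In PC9, PLAU, PLAT, PLAUR and SERPINB2 were higher with osimertinib, 4 of 5 urokinase system genes, against 10.1% of all tested genes that were higher and 6.41% that were lower. In H1650 only PLAU of the 3 genes read was higher, where 5.02% of all genes were higher and 3.73% lower. Both comparisons share the treated groups with the tests against T0.

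The difference between the responses of the lines was tested directly for the 3 genes read in both. With erlotinib, PLAUR fell less and SERPINE2 fell more in H1650, against 21.1% of all genes with a positive difference and 19.8% with a negative one. With osimertinib, PLAU and PLAUR had a positive difference and SERPINE2 a negative one, against 21.5% and 20.5% of all genes. At T0 PLAU, PLAUR and SERPINE2 were lower in H1650 than in PC9, where 33.8% of all genes were lower and 35.8% higher. PLAT and SERPINB2 passed the filter on low counts through PC9 alone and so had to be lower in H1650, and they are not counted. The log2 difference at T0 was -0.33 for PLAU (adjusted p = 0.000296), -0.47 for PLAUR (adjusted p = 0.000118) and -2.34 for SERPINE2 (adjusted p = 2.17e-20), and the T0 level of TGM2 was 4.57-fold lower in H1650, given without a test.

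Levels of inhibitor, receptor and activator were compared per gene length. The lengths in the count table were 8957 bases for SERPINE2, 2949 for PLAU and 4457 for PLAUR. A ratio between genes depends on these lengths, which need not be those of the transcripts present. The relative change of a ratio between groups does not depend on them. Before division by length, SERPINE2 was at 328 CPM and PLAU at 107.5 CPM in PC9 at T0. The ratio of SERPINE2 to PLAU in CPM per kilobase stayed between 0.995 and 1.30 in the PC9 libraries and averaged 0.251 at T0, 0.0873 after erlotinib and 0.0502 after osimertinib in H1650. The ratio of PLAUR to PLAU averaged 0.329 at T0, 0.140 after erlotinib and 0.236 after osimertinib in PC9. In H1650 it averaged 0.301 at T0, 0.333 after erlotinib and 0.195 after osimertinib.

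**Figure D3:**
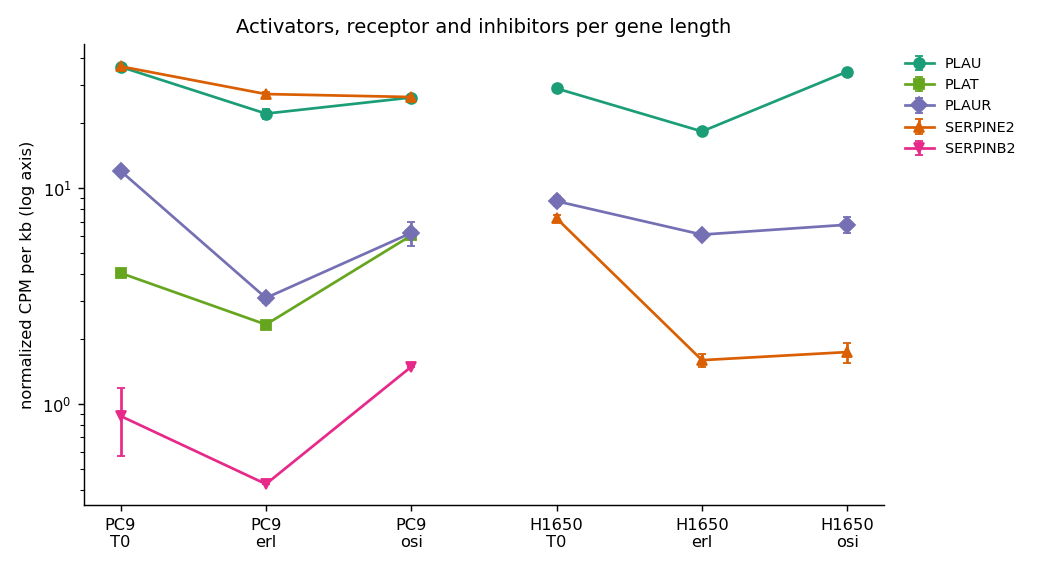
Mean normalized CPM per kilobase (y axis, logarithmic) of activators, receptor and inhibitors in each group (x axis), with S.D. of 2 libraries; groups with no more than 3 reads in either library are left out, and lines join groups of 1 cell line. PLAU and SERPINE2 lie close together in PC9 (36.5 and 36.6 at T0) and apart in H1650 (28.9 and 7.24 at T0). Distances between genes depend on the gene lengths in the count table.

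The other genes of the system were taken from a list of 27, written with earlier results of these data known, of which 22 passed the filter on low counts. Of 21 above the floor, 5 were higher and 12 lower in PC9 with erlotinib, 6 higher and 9 lower with osimertinib, and in H1650 these numbers were 3 and 8 with erlotinib and 5 and 8 with osimertinib. The shares of all tested genes that were higher and lower were 32.7% and 29.1%, 32.7% and 28.7%, 18.0% and 18.5%, and 17.8% and 17.9% in the same order, and the counts of the other lists are to be read against them too. The median log2 fold change of the list was -0.25, 0.02, -0.25 and -0.045 in that order, beside 0.07, 0.06, 0.01 and 0.00 over all tested genes. PLG, which encodes the substrate plasminogen and is made mainly by the liver, had 0 reads in all 12 libraries.

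Several genes of receptors and docking proteins of the system moved by more than 1 on the log2 scale in PC9. The integrin genes ITGB5 (-1.83 with erlotinib and -2.09 with osimertinib) and ITGA3 (-1.98 and -1.81) fell, as did ENO1 (-1.63 and -1.77), a glycolytic enzyme that also binds plasminogen at the cell surface. The endocytic receptor genes LRP1 (1.46 and 1.73) and VLDLR (1.89 and 1.79), which clear protease-inhibitor complexes, rose. In H1650, VLDLR rose (0.69 and 0.71), ENO1 fell (-0.90 and -0.41), LRP1 rose with osimertinib (0.44) and was at 0.21 with erlotinib, and ITGA3 fell with erlotinib (-0.19). ITGB5 was at -0.14 and 0.03 in H1650.

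ANXA2 and its partner S100A10, which form a plasminogen-binding complex at the cell surface, were both called higher with osimertinib than with erlotinib in PC9 and in H1650. Against T0 they fell with erlotinib in PC9 (-0.49 and -0.19) and in H1650 (-0.91 and -0.77). With osimertinib in H1650 they fell by 0.34 and 0.24 on the log2 scale. In PC9 with osimertinib S100A10 rose (0.19) and ANXA2 was at 0.12. VTN, the gene of the matrix protein vitronectin that binds the urokinase receptor, stayed at or below 1.06 CPM in all libraries.

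**Figure D4:**
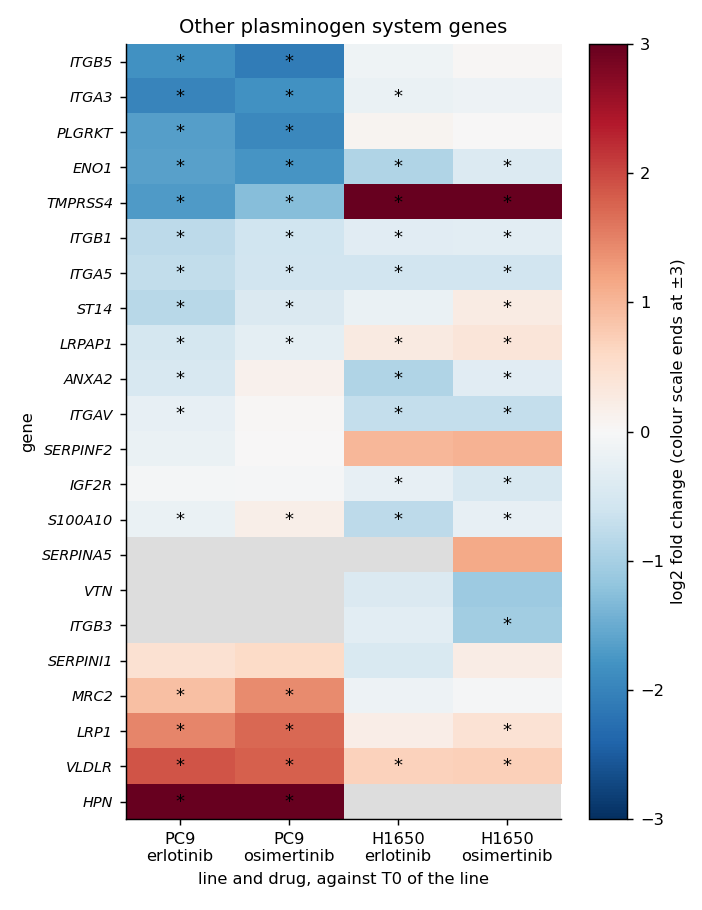
Log2 fold change against T0 (colour, scale ending at ±3) of the plasminogen system genes that passed the filter on low counts (rows) in each line and drug (columns). Asterisks mark calls at an adjusted p under 0.05 and grey cells have a group at or under 3 reads in both libraries; LRP1 and VLDLR are red and ITGB5, ITGA3 and ENO1 blue in both PC9 columns.

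Genes related to the members by sequence or partnership were counted in the same way. Of 6 tested genes of hepatocyte growth factor activation, a pathway whose ligand is activated by serine proteases, 4 were higher and 1 lower in PC9 with erlotinib (32.7% and 29.1% of all tested genes), and 2 higher and 1 lower in H1650 (18.0% and 18.5%). With osimertinib 3 were higher and 1 lower in each line (32.7% and 28.7% of all genes in PC9, 17.8% and 17.9% in H1650). Of 7 genes with LY6/uPAR domains, 1 was higher and 2 lower in PC9 with erlotinib (32.7% and 29.1% of all genes). With osimertinib 2 were higher and 2 lower there (32.7% and 28.7%). Of 6 above the floor in H1650, 2 were higher and 1 lower with erlotinib (18.0% and 18.5%). With osimertinib 2 were higher and 0 lower (17.8% and 17.9%). LYPD6B rose in PC9 (2.23 with erlotinib and 2.52 with osimertinib) and in H1650 with both drugs. LYPD3 fell in PC9 (-1.81 and -1.28). In H1650 LYPD3 was called higher with osimertinib and not called with erlotinib. Of the clade B serpins, relatives of SERPINB2, 5 of 6 above the floor were lower in PC9 with either drug (29.1% and 28.7% of all genes), and SERPINB1 was higher with erlotinib. In H1650, 3 of 7 were lower with erlotinib (18.5% of all genes) and 4 with osimertinib (17.9%), while SERPINB1 was higher with both drugs and SERPINB6 with erlotinib, named after their values were seen. Among them SERPINB7 fell in both lines (-2.52 and -1.39 in PC9, -1.93 and -1.34 in H1650).

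Only 3 of 9 other transglutaminase genes passed the filter on low counts, named here after their values were seen as TGM1, TGM4 and TGM5. In PC9, 1 was higher and 1 lower with erlotinib (32.7% and 29.1% of all genes), and 2 and 1 with osimertinib (32.7% and 28.7%). In H1650, 2 were higher and 0 lower with erlotinib (18.0% and 18.5%), and 1 and 0 with osimertinib (17.8% and 17.9%). TGM5 was sparse (group means of at most 6.77 CPM), with 0 and 2 reads in PC9 after erlotinib and 8 and 5 in H1650 at T0. Like TGM2, TGM5 was lower in PC9 and higher in H1650 with both drugs. TGM1 was instead called higher in PC9 with both drugs, and also in H1650 with erlotinib. TGM4 was called higher in PC9 with osimertinib. Of 7 surface partners of TGM2, a list that shares ITGB1, ITGA5 and LRP1 with the plasminogen list, 6 were above the floor in PC9. There 3 were higher (FN1, SDC4 and LRP1) and 3 lower (ADGRG1, ITGA5 and ITGB1) with erlotinib, named after their values were seen. With osimertinib 3 were higher and 2 lower. In H1650, 5 were lower and 0 higher with erlotinib (18.5% and 18.0% of all genes), and 6 were lower and 1 higher with osimertinib (17.9% and 17.8%). At T0 the 6 partners above the floor in PC9 were all higher in H1650 than in PC9 (35.8% of all genes), where TGM2 itself was lower. SDC2 passed the filter on low counts through H1650 alone and so had to be higher there, and it is not counted.

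Among 12 AP-1 and ETS transcription factor genes, families that bind the promoters of several protease genes, 5 were higher and 6 lower in PC9 with erlotinib (32.7% and 29.1% of all genes), and 3 higher and 7 lower in H1650 (18.0% and 18.5%). With osimertinib 6 were higher and 5 lower in PC9 (32.7% and 28.7%), and 3 higher and 5 lower in H1650 (17.8% and 17.9%). FOSL1, an AP-1 member, fell in PC9 (-4.40 and -4.14) and in H1650 (-2.75 and -3.11), from 298 to 14.2 CPM and from 25.6 to 3.80 CPM with erlotinib. ETV5 (-6.08 and -7.35), ETV4 (-5.03 and -5.61), ETV1 (-4.55 and -5.94) and ETS1 (-1.46 and -1.55) fell in PC9, and JUND rose (1.92 and 1.85). In H1650, ETV1 rose (2.16 and 1.78) and JUN fell (-1.78 and -1.13). The windows with a TGANTCA match belonged to PLAUR and SERPINB2, and the data here hold no measurement of binding at them.

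Finally, genes whose level followed each member over the 12 libraries were ranked among 10294 genes with a mean of at least 10 CPM. The 12 libraries share 2 lines and 6 groups, so these correlations (Pearson's r of log2 CPM) describe the same group differences. The closest gene was AACS for PLAU (r = 0.919), UBAP2L for PLAUR (0.970), LRRC61 for PLAT (0.994), PEAR1 for SERPINE2 (0.996), DIPK2A for SERPINB2 (0.993) and PCNA for TGM2 (0.994). The next in order were ZC3HC1 and SFN, NCOA5 and VCP, SLC39A4 and PDLIM4, SHISA9 and DGKD, ELF4 and LRRC8A, and SLCO4A1 and ACOT7. Of these 3 genes per member, Spearman's rho kept 1 for PLAU, 2 for PLAT and 0 for each of the other 4 members.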

How the data were processed

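The deposited file held raw featureCounts counts of reads per gene for 12 libraries, made by the authors with the DolphinNext pipeline from polyA RNA of cells that were trypsinised before extraction, and GRCh38 is the build that the labels name. The aligner, the annotation and the strand setting are not given in the sources used here, and the submitters' notes name DESeq2. Gene lengths came from the same table. Members and gene lists were chosen with earlier results of these data known.

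Counts were tested with edgeR 4.0.16 (R 4.3.3): filterByExpr kept 19108 genes and left 41483 out, libraries were scaled by TMM (factors 0.941 to 1.08), and 1 quasi-likelihood model of 6 groups gave 9 comparisons, with Benjamini-Hochberg adjustment over all tested genes at 0.05. SE was the absolute log2 fold change over the square root of F, and 95% intervals used the residual and prior degrees of freedom (6 and 20.7). A floor of 3 reads per library (0.116 to 0.168 CPM) limited folds, and it covers counting error only. Named list genes were called in the same direction in both drug comparisons of a line, with a log2 fold change of at least 1 in size and a mean of at least 10 CPM, at most 6 per list, plus PLG, ANXA2, S100A10, LRP1 and VTN as partners of members. Another gene of the plasminogen list is not reported here and was left out of its counts. Replicates differed by more than counting noise (chi-square per degree of freedom 3.78 to 6.56). On simulated counts for 19085 genes, 200 genes were changed by 1 on the log2 scale. The edgeR test recovered 163 of them for PC9 erlotinib against T0 and 142 for the erlotinib difference between lines, with 7 other calls in each. The changed genes left out those with the fewest reads, and counts were drawn with the dispersions of the edgeR fit. Far more genes were called in the data than were changed here, so the share recovered in the data was not measured. Alternatives were DESeq2 1.42.0, other scalings and filters, a stricter threshold, fits per line, a replicate block and each library left out. Gene positions and overlaps were read from the human gene annotation, GENCODE 29, on GRCh38.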

Additional observations from a re-analysis of the deposited data

Results flagged for a closer look

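The responses of the lines differed by a test of the difference itself for 3 genes (H1650 minus PC9, log2 scale, edgeR with Benjamini-Hochberg adjustment). Of all tested genes, 21.1% had a positive and 19.8% a negative difference with erlotinib, and 21.5% and 20.5% with osimertinib. PLAU differed by 0.73 with osimertinib and was not called with erlotinib (0.06, adjusted p = 0.722 in edgeR). PLAUR differed by 1.44 with erlotinib and 0.60 with osimertinib, and SERPINE2 by -1.76 and -1.59. For TGM2 the values were 7.14 with erlotinib and 6.44 with osimertinib, with every treated PC9 library below T0 and every treated H1650 library above it, and this difference was not tested because it chose the gene.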

How the results depend on the processing

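Of 858 log2 fold changes of the members, each under at most 20 alternative settings, 837 kept their direction and their side of the threshold. A further 15 lost the call, 3 gained a call and 1 reversed, and 2 TGM2 values moved by more than 1 SE of the main fit. The PLAU difference between lines with erlotinib became -0.022 with upper quartile scaling. With at least 10 reads required in every library, PLAT and SERPINB2 were not tested, and the 3 genes counted between the lines at T0 kept their calls. The urokinase system genes called fell to 3 in PC9 with erlotinib and 2 in PC9 between the drugs. Leaving out 1 library gave 1 to 3 such genes in H1650 with osimertinib.

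Over all genes, osimertinib against erlotinib called 1672 in H1650 and 3163 in PC9. With a threshold of 0.01 these were 912 and 1930, and with 1 library left out 782 to 1818 and 2108 to 3234. The replicate block gave 2670 in H1650. Deviations of same-numbered libraries from their group means, taken over all tested genes, correlated between -0.0643 and 0.0808 over 15 pairs of groups. Single genes can still share a deviation, and JUN was higher in replicate 1 than in replicate 2 in all 6 groups. Whether the replicate numbers pair the libraries is therefore not settled by these correlations. The cause of the changes in the numbers of genes called was not tested. With 2 libraries per group, low counts limit SERPINB2 and the H1650 levels of PLAT most.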
